A study of Mus musculus with 17 samples.

Results

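The insulin-like growth factor (IGF) transcripts were followed through all 17 libraries of a mouse study of cellular senescence and kidney aging. The family was taken as 10 listed genes, the ligands Igf1 and Igf2, the receptor Igf1r and the binding proteins Igfbp1 to Igfbp7. All 10 were found, by symbol and Ensembl identifier, among the 53313 gene identifiers that the libraries have in common. Messenger RNA had been sequenced from primary tubular epithelial cells (PTEC) and from whole kidneys of wild-type mice, C57BL/6Rj in the labels and C57BL/6JRj in the study's methods. PTEC are epithelial cells grown out of collagenase-digested tubular fragments in REGM2 medium. There were 4 non-irradiated cultures at day 6, called non-senescent here, and 4 cultures at day 16 that had received 10 Gray of γ-irradiation at confluence, called senescent. Irradiation and time in culture change together between them and cannot be told apart. The kidney samples were part of the right kidney of untreated male mice, 3 each at 3, 12 and 24 months of age, chosen without macroscopic or histological pathology. No source says that each culture came from its own mouse, so the p-values for PTEC measure the spread between these cultures, which may be technical.

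IGF-I and IGF-II are peptide hormones that bind the IGF-I receptor, a tyrosine kinase that signals through insulin receptor substrates, phosphoinositide 3-kinase and Akt to growth and survival. Circulating IGF-I comes mainly from the liver under growth hormone. The IGF binding proteins (IGFBP) hold the ligands in blood and tissue, lengthen their half-life and keep them from the receptor, and proteases that cut the binding proteins set the ligands free. IGFBP7 binds IGF weakly and has been used as a urinary marker of tubular stress.

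Total counts ran from 26963442 to 32838856 in non-senescent PTEC, from 29041073 to 35409144 in senescent PTEC, from 37311247 to 49471409 at 3 months, from 54097073 to 59718029 at 12 months and from 62761670 to 66894790 at 24 months. The senescence markers Cdkn1a and Cdkn2a, which encode the cell cycle inhibitors p21 and p16, were up-regulated in senescent PTEC by log2 1.30 ± 0.19 and 1.64 ± 0.20 (SE, n = 4 and 4, edgeR adjusted p = 0.000602 and 0.000236). Proximal tubule markers were present unevenly in PTEC. The endocytic receptor Lrp2 was at 161 ± 178 CPM (library-scaled counts per 1e6, SD, n = 4) in non-senescent cultures, whereas the phosphate transporter Slc34a1 was at 7.22 ± 8.53 CPM in non-senescent and 0.0193 ± 0.0249 CPM in senescent cultures. With counts from 6 to 606 in the non-senescent cultures, Slc34a1 did not pass the low-count filter and was not tested. The 3-month kidneys were counted on another gene set than the older ones, so that age and this difference cannot be told apart. Each of the 10 genes carries the same identifier version in all 17 libraries.

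Gene positions are those of GENCODE M21 on GRCm38. Igf1 lies at chr10:87858265-87937042 on the plus strand, Igf2 at chr7:142650766-142666816 on the minus strand and Igf1r at chr7:67952827-68233668 on the plus strand. Igfbp2 (chr1:72824503-72852474, plus strand) and Igfbp5 (chr1:72857932-72874884, minus strand) are neighbours with 5457 bases between their ends. Igfbp1 (chr11:7197782-7202546, plus strand) and Igfbp3 (chr11:7206086-7213923, minus strand) are likewise neighbours, 3539 bases apart. Igfbp4 lies at chr11:99041244-99054392 on the plus strand, Igfbp6 at chr15:102144362-102149511 on the plus strand and Igfbp7 at chr5:77349240-77408041 on the minus strand. Of the 5723 exonic bases of Igf2, 3596 (62.83%) are shared with Gm49394 on the same strand, so reads from these bases may have been left out of the Igf2 counts. Igfbp7 shares 85 of its 1209 exonic bases with Polr2b on the opposite strand, and although the libraries were stranded, how counting treated the strand is not given in the sources used here.

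RefSeq promoter windows on GRCm38.p6 were matched for 10 of the 10 genes, at 14 transcript starts. The 250 bases before the start are shown for 4 binding protein genes, since Igfbp2 and Igfbp7 were higher and Igfbp1 and Igfbp4 lower in senescent PTEC. They are given 5′ to 3′ on the strand of the gene, and capitals mark matches on either strand to 4 motifs. The letters searched for the core promoter box that the TATA-binding protein knows were TATAAA. Those for the GC box, bound by Sp factors, were GGGCGG. Those for the core of an insulin response element were CAAAACAA, and those for the E box were CACGTG. The positions are chr1:72824230-72824479 (plus strand) for Igfbp2, chr5:77408046-77408295 (minus strand) for Igfbp7, chr11:7197537-7197786 (plus strand) for Igfbp1 and chr11:99040994-99041243 (plus strand) for Igfbp4.
Igfbp2: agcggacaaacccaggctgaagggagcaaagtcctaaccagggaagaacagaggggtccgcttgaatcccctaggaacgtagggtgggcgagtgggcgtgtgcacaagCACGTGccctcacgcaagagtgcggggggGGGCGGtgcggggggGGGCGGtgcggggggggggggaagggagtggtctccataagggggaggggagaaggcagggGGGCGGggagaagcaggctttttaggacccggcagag
Igfbp7: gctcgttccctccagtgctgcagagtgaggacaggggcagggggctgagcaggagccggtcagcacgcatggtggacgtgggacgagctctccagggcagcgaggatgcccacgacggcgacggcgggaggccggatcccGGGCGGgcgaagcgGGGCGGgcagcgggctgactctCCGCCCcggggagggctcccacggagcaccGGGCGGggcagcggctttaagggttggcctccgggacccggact
Igfbp1: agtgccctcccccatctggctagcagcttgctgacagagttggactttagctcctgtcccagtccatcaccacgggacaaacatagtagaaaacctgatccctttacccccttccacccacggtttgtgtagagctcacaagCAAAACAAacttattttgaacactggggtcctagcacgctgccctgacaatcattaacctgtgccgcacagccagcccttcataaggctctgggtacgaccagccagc
Igfbp4: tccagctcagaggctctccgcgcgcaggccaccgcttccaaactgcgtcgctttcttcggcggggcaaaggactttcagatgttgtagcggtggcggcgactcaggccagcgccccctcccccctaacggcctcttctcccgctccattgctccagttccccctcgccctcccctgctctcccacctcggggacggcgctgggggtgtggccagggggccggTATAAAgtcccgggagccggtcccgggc

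The Igfbp2 window, of the first of its 2 RefSeq starts, held 3 GC boxes, which began 113, 98 and 37 bases before the start, and an E box that began 142 bases before it. The Igfbp7 window held 4 GC boxes and no TATA box. The Igfbp1 window held the insulin response core 108 bases before the start, and the Igfbp4 window a TATA box 28 bases before it. Of all 32851 RefSeq windows of this length, 32.74% held a GC box, 12.37% a TATA box, 2.213% the insulin response core and 6.021% an E box. Guanine and cytosine made up 67.2% of the Igfbp2 window, 74.0% of the Igfbp7 window, 53.2% of the Igfbp1 window and 69.2% of the Igfbp4 window, against a median of 52.4% over all windows. The window of the other Igfbp2 start, chr1:72825137-72825386, held none of the 4 motifs and had 56.4% guanine and cytosine. The first transcribed bases of that start, and those of the printed Igfbp1 and Igfbp4 starts, were found in a GENCODE M21 transcript. Those of the printed Igfbp2 and Igfbp7 starts were not. These matches are descriptions of sequence and show no binding.

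The first comparison asked how the IGF transcripts differ between senescent and non-senescent PTEC. Senescent cultures had more Igf2, Igfbp2, Igfbp6 and Igfbp7 and less Igfbp1 and Igfbp4. Of the 10 genes, 4 were up-regulated, 2 were down-regulated and 4 did not pass. The test required an edgeR adjusted p under 0.05 over all 15434 tested genes and an absolute log2 fold change above 0.5. Igf2 and Igfbp1 are in the counts here, though each passed the low-count filter only through the group where it is high. For these 2 genes the test adds no support beyond the counts per culture. Of all tested genes 39.8% passed, 20.1% as higher and 19.7% as lower. These counts come from the fit without the replicate number as a block. With the block Igf1r and Igfbp5 passed as well, which made 6 genes higher and 2 lower, against 23.2% and 21.3% of all tested genes. The groups did not overlap for 6 of the 10 genes, against 42.0% of all tested genes. The median log2 fold change was 0.89 over the 10 genes and -0.0020 over all tested genes.

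**Figure D1:**
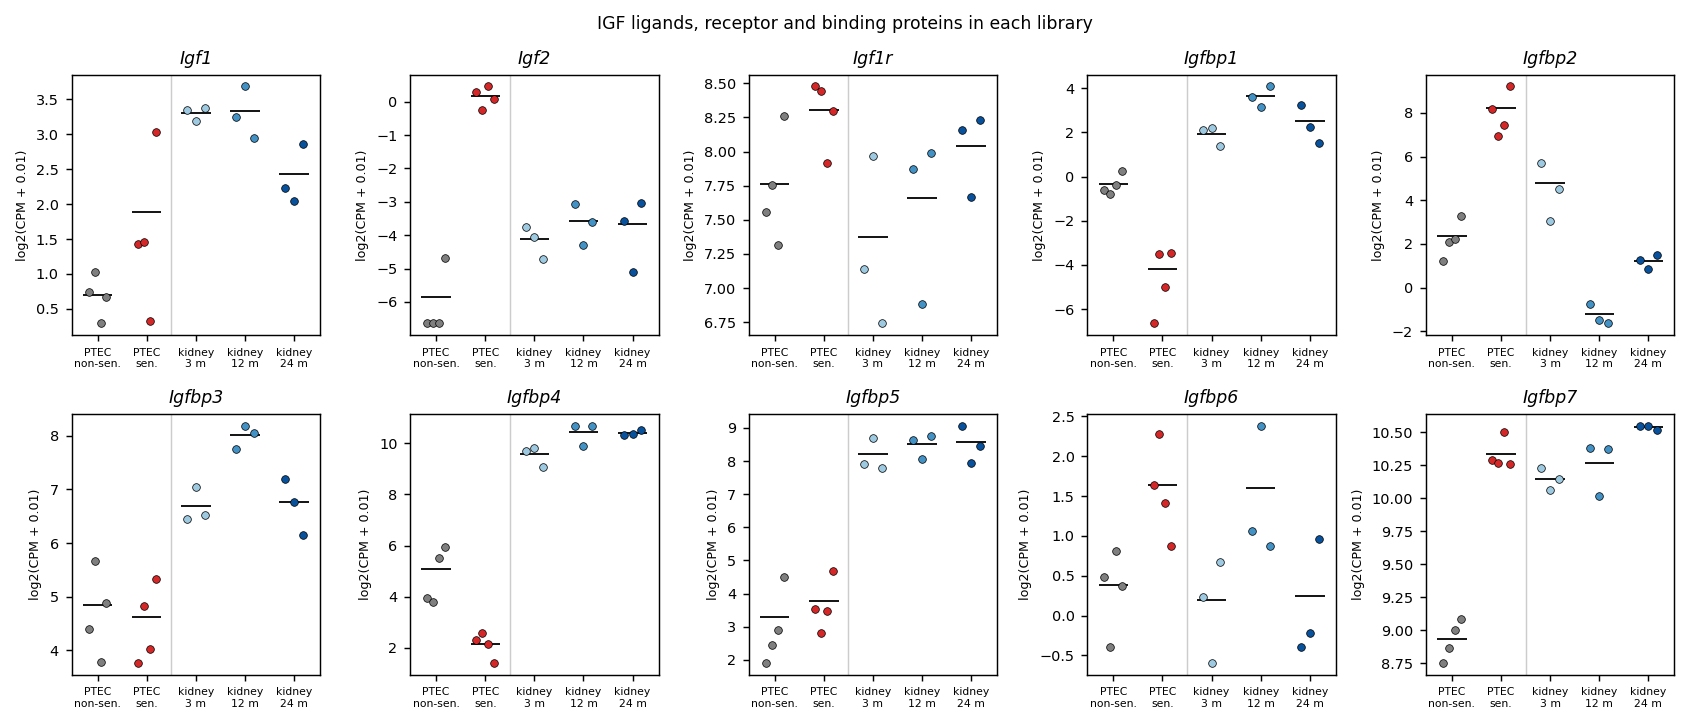
Level of each of the 10 genes in every library, as log2 of CPM + 0.01 on the y axis, by group on the x axis (non-sen., non-senescent; sen., senescent; m, months). Points are libraries and bars are group means. Igfbp2 reached 124 to 595 CPM in senescent PTEC, above every other library.

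Of the ligands, Igf2, the fetal growth factor that is imprinted and low in most adult mouse tissues, was nearly absent from non-senescent PTEC. Its counts in non-senescent replicates 1 to 4 were 0, 0, 0 and 1, and in senescent replicates 1 to 4 they were 48, 32, 64 and 39. All senescent cultures lay above all non-senescent ones, at 0.833 to 1.37 CPM. The pooled ratio, with the library scaling used for CPM, was 164, with an exact 95% interval of 29.1 to 6511 that covers counting error only. Igf2 passed the low-count filter only through the senescent cultures, so its test adds no support beyond these counts. The fitted log2 fold change was 6.80 ± 0.58 (SE), a value that depends on the prior count because 1 group is near 0. It was 8.46 without non-senescent replicate 4. H19, the imprinted non-coding RNA next to Igf2, was higher as well, from 0.138 ± 0.0814 to 3.30 ± 1.31 CPM (SD, n = 4), with a pooled ratio of 24.7 (15.9 to 40.8). With 2 to 8 counts per non-senescent culture, it too passed the filter only through the senescent ones. Both transcripts remained at a few CPM or less.

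Igf1, the main postnatal ligand, measured 1.66, 2.03, 1.21 and 1.58 CPM in the non-senescent cultures. In the senescent ones it measured 2.68, 2.73, 1.24 and 8.15 CPM. The groups overlapped, and replicate 4 stood well above the other senescent cultures. The log2 fold change of 1.22 (95% CI 0.08 to 2.36) did not pass (adjusted p = 0.0785). Without senescent replicate 4 it was 0.47 (adjusted p = 0.321), and without senescent replicate 3 it was 1.52 and passed (adjusted p = 0.0184).

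The receptor Igf1r was abundant in both kinds of culture. It measured 188, 216, 160 and 306 CPM in non-senescent and 357, 349, 242 and 315 CPM in senescent PTEC. The senescent value was the higher in 4 of 4 same-numbered pairs, though the groups overlapped. The log2 fold change was 0.56 ± 0.22 (SE, adjusted p = 0.0616), and with the replicate number as a block it was 0.59 and passed (adjusted p = 0.0125). It also passed without non-senescent replicate 4 (0.77, adjusted p = 0.00932) and without senescent replicate 3 (0.69, adjusted p = 0.0329), 2 of 8 such fits.

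Among the binding proteins, Igfbp2, a secreted carrier with a preference for IGF-II, had the largest log2 fold change. It measured 2.35, 4.18, 4.61 and 9.66 CPM in non-senescent cultures. In senescent cultures it measured 288, 124, 177 and 595 CPM. No value of one group came near the other, and within same-numbered pairs the senescent culture was 29.7 to 123 times higher. The fitted difference was 58.1-fold (log2 5.86 ± 0.64, SE, n = 4 and 4, adjusted p = 0.000111). Leaving out 1 culture gave log2 5.26 to 6.35, the lowest without senescent replicate 4, and the call held in 8 of 8 such fits. Its neighbour Igfbp5, a matrix-binding carrier, measured 3.76, 5.48, 7.50 and 22.7 CPM against 11.5, 7.03, 11.1 and 25.6 CPM. Its groups overlapped, with replicate 4 the highest in both, and its log2 fold change of 0.51 (95% CI -0.77 to 1.79, adjusted p = 0.502) did not pass. With the replicate block Igfbp5 was at 0.68 and passed (adjusted p = 0.0345), and without non-senescent replicate 4 it was at 1.33 (adjusted p = 0.0439), the 1 of 8 fits that leave out a culture in which it passed. The lowest of these fits was at 0.018 (adjusted p = 0.984), without senescent replicate 4. The difference in response between the 2 neighbours was not tested.

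Igfbp7, the most abundant member per length, measured 431, 467, 512 and 541 CPM in non-senescent and 1251, 1232, 1450 and 1222 CPM in senescent PTEC. The spread within each group was small beside the gap between them. It was up-regulated 2.68-fold (log2 1.42 ± 0.14, SE, adjusted p = 6.81e-05). Igfbp6, a carrier with a strong preference for IGF-II, measured 1.38, 0.754, 1.74 and 1.28 CPM against 3.11, 4.84, 2.65 and 1.82 CPM. Its lowest senescent value was just above its highest non-senescent one, and it was up-regulated 2.45-fold (log2 1.29 ± 0.36, SE, adjusted p = 0.0155).

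Igfbp1, a carrier whose transcription insulin represses in liver, went the other way. Its CPM in non-senescent cultures were 0.643, 0.572, 0.747 and 1.17. In senescent cultures they were 0, 0.0781, 0.0214 and 0.0802. With 112 counts in all against 7, the pooled ratio was 17.9 in favour of the non-senescent cultures (exact 95% interval 8.39 to 45.4, counting error only). Igfbp1 passed the low-count filter only through the non-senescent cultures, so its test adds no support beyond these counts. The fitted log2 fold change was -4.04 ± 0.57 (SE), which depends on the prior count. Igfbp3, the next gene on the chromosome and the main carrier of IGF in serum, measured 21.2, 50.5, 13.8 and 29.6 CPM against 13.7, 28.3, 16.3 and 40.4 CPM. The groups covered much the same range, and the log2 fold change was -0.20 (95% CI -1.17 to 0.78, adjusted p = 0.743).

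Igfbp4, a carrier that is cut by the protease PAPP-A, measured 15.6, 13.7, 46.0 and 62.0 CPM in non-senescent PTEC. It measured 4.93, 5.96, 4.44 and 2.67 CPM in senescent PTEC. Every senescent culture was below every non-senescent one, and replicates 3 and 4 of the non-senescent cultures were well above the others. It was down-regulated 7.51-fold (log2 -2.91 ± 0.51, SE, adjusted p = 0.00156).

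**Figure D2:**
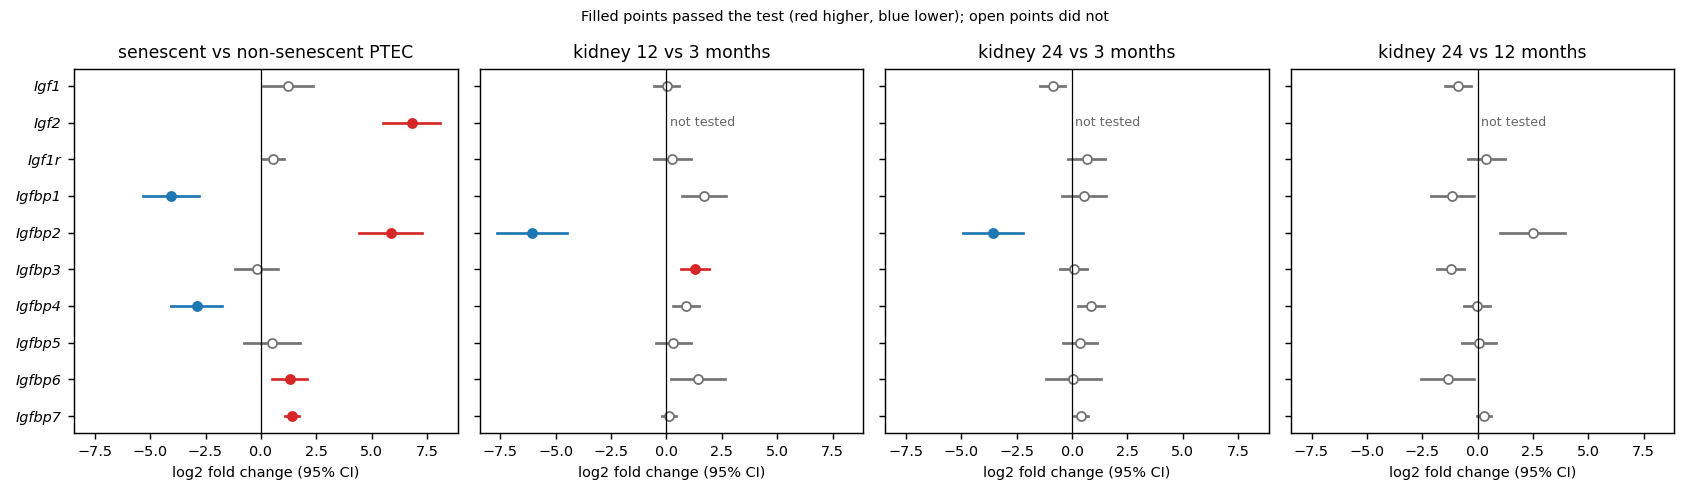
Log2 fold change (x axis) with its 95% confidence interval for the 10 genes (y axis) in 4 comparisons, from edgeR fits. Filled points passed the test, red higher and blue lower in the first-named group. In PTEC 6 genes passed, at 12 against 3 months 2, at 24 against 3 months 1 and at 24 against 12 months none. Of those in PTEC, Igf2 and Igfbp1 passed the low-count filter only through the group where each is high. Igf2 was too low to test in kidneys.

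Other cell type markers moved between the same cultures, where 20.1% of all tested genes were higher and 19.7% lower. Of the fibroblast and pericyte markers 4 of 6 tested were higher, and their sum over 7 genes ran from 11.7 to 80.3 CPM in non-senescent and from 84.8 to 318 CPM in senescent PTEC. The defining marker Dcn was below 1 CPM in every culture, though higher in senescent ones, at 0.598 ± 0.185 against 0.0707 ± 0.0526 CPM (SD, n = 4). With 0 to 4 counts per non-senescent culture, Dcn could pass the low-count filter only through the senescent ones. The sum of the smooth muscle markers Myh11, Acta2 and Cnn1 ran from 30.0 to 84.1 CPM and from 386 to 873 CPM. The loop of Henle markers Umod and Slc12a1 summed to 3.98 to 17.7 CPM in non-senescent and 0.347 to 0.577 CPM in senescent cultures. The transcription factor Hnf4a, a proximal tubule marker, was down-regulated (log2 -2.98 ± 0.18, SE, adjusted p = 3.62e-06). It was 1 of 2 lower among the 4 proximal tubule markers tested, and Lrp2 did not pass, at 177 ± 74.8 CPM (SD, n = 4) in senescent PTEC (log2 0.17, adjusted p = 0.853). Of the macrophage and leukocyte markers 2 of 5 tested were lower, Cd68 (8.23 to 13.9 CPM in non-senescent and 3.26 to 7.91 CPM in senescent cultures) and Ptprc (2.86 ± 0.641 against 1.46 ± 0.307 CPM, SD, n = 4), and their sum ran from 60.0 to 84.3 CPM and from 42.0 to 158 CPM. The endothelial marker Kdr was lower, 1 of 5 tested, with sums of 50.5 to 170 CPM and 40.6 to 164 CPM. The podocyte marker Nphs1 was higher, 1 of 3 tested, at under 1 CPM on average, with sums of 42.6 to 103 CPM and 48.8 to 111 CPM. Nphs1 had 0 to 9 counts per non-senescent culture and passed the low-count filter only through the senescent ones. The part of these markers in the differences of the IGF genes was not tested. In these bulk libraries fewer cells of a type and less RNA per cell cannot be told apart.

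The other genes of the pathway were counted by list, where 20.1% of all tested genes were higher and 19.7% lower. Of the carrier and proteolysis genes, 3 of 5 tested were higher. They were Pappa2, a protease that cuts IGFBP3 and IGFBP5 (log2 3.81 ± 0.41, SE), and the stanniocalcins Stc2 and Stc1, which inhibit such proteases. Stc2 was at log2 2.02 ± 0.31 (SE, adjusted p = 0.000758) and Stc1 at 1.42 ± 0.34 (adjusted p = 0.00796). Pappa2 was low, at 0.423 ± 0.118 CPM (SD, n = 4) and 13 to 23 counts per culture in senescent PTEC. It had 1 count in each non-senescent culture and passed the low-count filter only through the senescent ones. Its log2 fold change therefore depends on the prior count, and its test adds no support. The protease Pappa was at 0.85 (adjusted p = 0.137) and did not pass.

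CCN proteins are matricellular proteins that carry an IGFBP-like domain, and 4 of 4 tested were higher. Ccn2, known as connective tissue growth factor, went from 1175 ± 190 to 3813 ± 419 CPM (SD, n = 4; log2 1.72 ± 0.17, SE, adjusted p = 6.84e-05). Ccn5 was at 3.13 (2.50 without senescent replicate 4), Ccn4 at 1.85 and Ccn1 at 1.20 on the log2 scale. Of the other genes with such a domain, Kazald1 (1.67) and Esm1 (1.58) were higher, 2 of 2 tested. Esm1, an endothelial proteoglycan core, passed in only 3 of 8 fits that each leave out 1 culture, with log2 from 1.30 to 2.29. It did not pass without the low-count filter (adjusted p = 0.164).

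Insr and Igf2r were the tested receptors outside the members, and neither passed. Of 18 signalling genes reported 2 were higher and 1 lower, where 20.1% of all tested genes were higher and 19.7% lower. The higher ones were the transcription factor Foxo3 (log2 0.53, adjusted p = 0.0274) and the phosphoinositide 3-kinase regulatory subunit Pik3r2 (0.51, adjusted p = 0.00894). The adaptor Irs2 was the 1 lower gene (-0.65 ± 0.19, SE, adjusted p = 0.0198). Foxo3 had an adjusted p under 0.05 in 3 of 8 and Irs2 in 6 of 8 fits that leave out 1 culture, Irs2 was at -0.43 without non-senescent replicate 4, and Pik3r2 was at 0.499 with other size factors, just under the fold required. Of 6 growth hormone axis genes, the feedback inhibitors Cish (0.63) and Socs2 (0.51) were higher, with an adjusted p under 0.05 in 3 and 2 of these 8 fits. Socs2 was at 0.495 with other size factors, under the fold required. Its adjusted p was 0.0532 without the low-count filter and 0.0538 with DESeq2. The oncofetal RNA-binding proteins that bind Igf2 mRNA were split, with Igf2bp1 (-1.46 ± 0.19, SE, adjusted p = 0.000313) and Igf2bp2 (-0.64) lower and Igf2bp3 (1.09) higher.

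**Figure D3:**
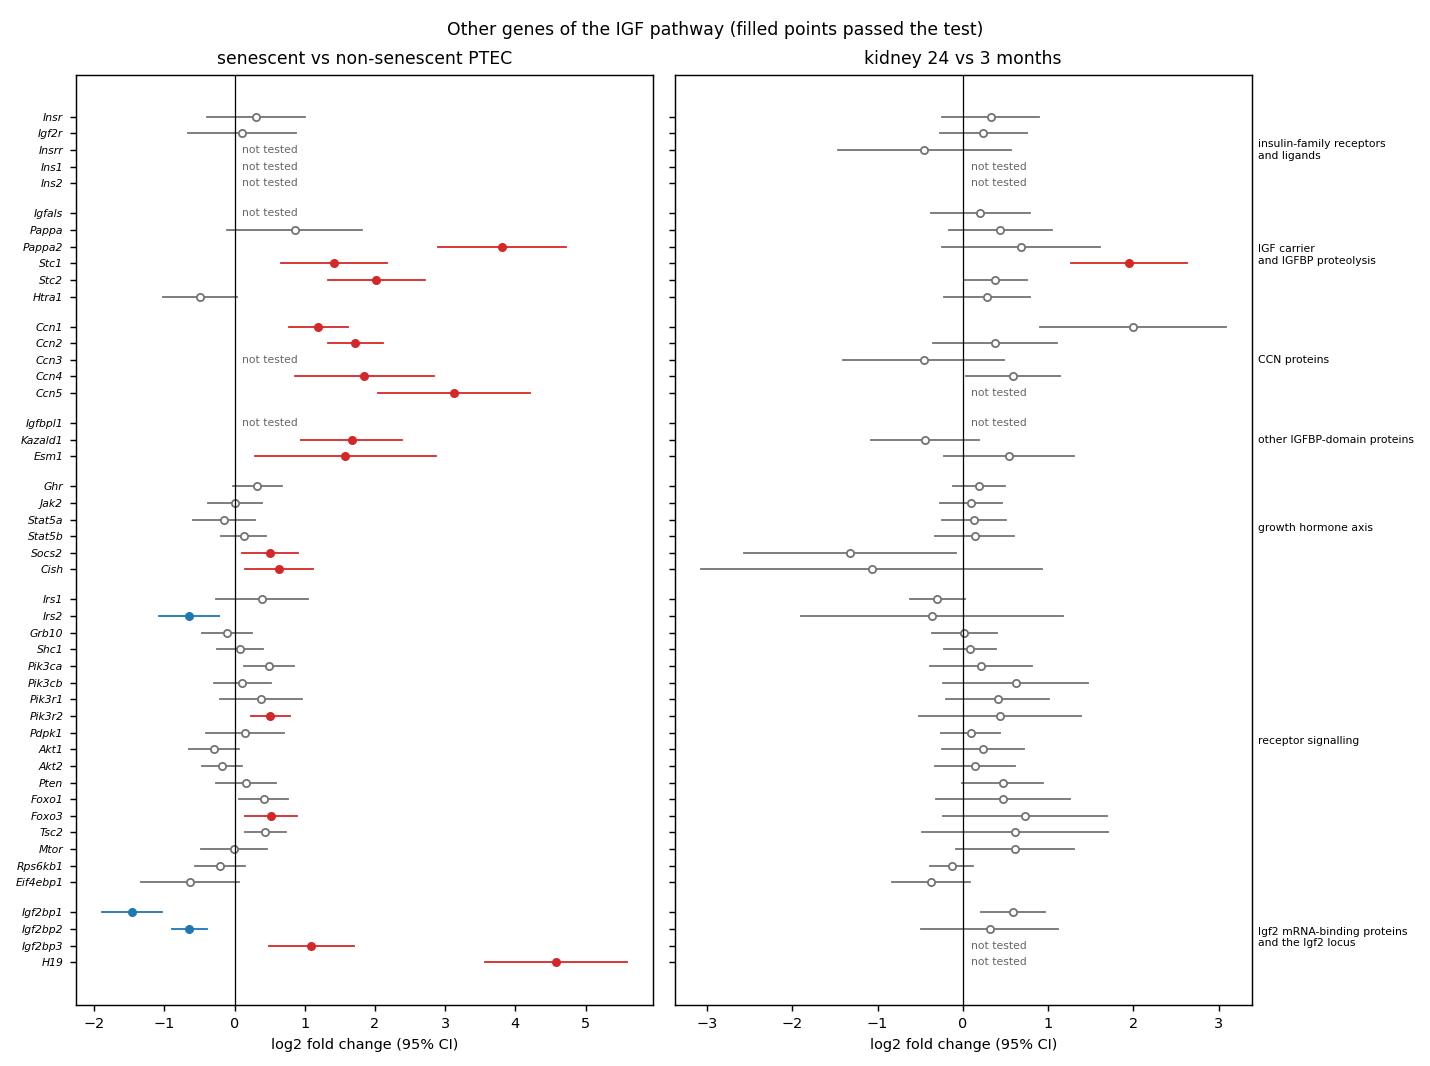
Log2 fold change (x axis, with its own scale in each panel) and 95% confidence interval of the other listed IGF pathway genes (y axis), in senescent against non-senescent PTEC and in 24- against 3-month-old kidneys. Filled points passed the test. The filled points include 4 CCN genes in PTEC and Stc1 in kidneys.

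The second comparison asked how the same transcripts differ with age in the whole kidney. Igfbp2 was highest at 3 months, lowest at 12 months and between them at 24 months. Of the 9 genes tested, 1 was down-regulated at 24 against 3 months, Igfbp2, and none was up-regulated, while 2.34% of all 17067 tested genes passed, 1.89% higher and 0.451% lower. By unadjusted p under 0.05 the count was 4 of 9 genes, against 18.2% of all tested genes. DESeq2 called 2 lower, Igfbp2 and Igf1, against 1.03% of the 30029 genes in its fit, which had no low-count filter. At 12 against 3 months 1 was lower, Igfbp2, and 1 higher, Igfbp3, where 2.58% of all genes passed, 1.36% lower and 1.22% higher. At 24 against 12 months none of the 9 passed with edgeR, where 1.33% of all genes did, 0.896% higher and 0.434% lower. There 5 of 9 had an unadjusted p under 0.05, against 15.2% of all genes. DESeq2 called Igfbp2 higher and Igfbp3 lower, against 1.64% higher and 0.952% lower over its 30029 unfiltered genes. The comparisons with 3 months share the same 3 control kidneys. Igf2, with 1 to 6 counts per kidney, was too low to test.

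Igfbp2 measured 52.3, 8.22 and 22.6 CPM in the 3-month kidneys. It measured 0.586, 0.350 and 0.310 CPM at 12 months and 2.36, 1.77 and 2.79 CPM at 24 months. The ages did not overlap with one another, and the 3-month kidneys varied most among themselves. It was 66.8-fold lower at 12 than at 3 months (log2 -6.06 ± 0.70, SE, n = 3 and 3, adjusted p = 0.00516), a call that held in 6 of 6 fits that each leave out 1 kidney, with log2 from -6.49 to -5.21, the latter without the first of the 3-month kidneys. It was 12.0-fold lower at 24 than at 3 months (log2 -3.58 ± 0.60, SE, adjusted p = 0.0202). That second call did not survive leaving out the first of the 3-month kidneys (-2.73, adjusted p = 0.0573), nor any one of the 24-month kidneys (adjusted p = 0.0863, 0.0799 and 0.0698 for replicates 1, 2 and 3). From 12 to 24 months the log2 fold change was 2.48 ± 0.65 (SE, adjusted p = 0.112), and with only these 6 kidneys in the fit it passed (adjusted p = 0.0328).

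Igfbp3 measured 87.6, 131 and 91.8 CPM at 3 months, 214, 291 and 265 CPM at 12 months and 146, 109 and 70.9 CPM at 24 months. The 12-month kidneys lay above all others, and the 3- and 24-month kidneys overlapped. Its log2 fold change was 1.29 ± 0.28 at 12 against 3 months (SE, adjusted p = 0.0489), close to the threshold, and it passed in 1 of 6 fits that leave out 1 kidney, the one without 3-month replicate 2 (adjusted p = 0.0316). The adjusted p rose to 0.209 when replicate 1 of the youngest kidneys was dropped and to 0.138 when their replicate 3 was, and dropping replicates 1, 2 and 3 at 12 months gave 0.102, 0.0975 and 0.141. Its neighbour Igfbp1 measured 4.36, 4.55 and 2.59 CPM at 3 months, 12.0, 8.79 and 16.9 CPM at 12 months and 9.41, 4.66 and 2.86 CPM at 24 months. All 12-month kidneys were above all 3-month ones for Igfbp1, with a log2 fold change of 1.70 ± 0.45 (SE) that did not pass (adjusted p = 0.0871).

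Igfbp4 and Igfbp7 were the most abundant binding protein transcripts of the kidney. Igfbp4 measured 830, 907 and 540 CPM at 3 months, 1626, 951 and 1649 CPM at 12 months and 1270, 1315 and 1484 CPM at 24 months. Every 12- and 24-month kidney was above every 3-month kidney, with log2 fold changes of 0.88 and 0.84 that did not pass (adjusted p = 0.123 and 0.143). Igfbp7 measured 1197, 1070 and 1132 CPM at 3 months, 1335, 1037 and 1328 CPM at 12 months and 1497, 1498 and 1462 CPM at 24 months. The 24-month kidneys were the highest and lay close together, and the log2 fold change against 3 months was 0.39 (95% CI 0.07 to 0.71, adjusted p = 0.196).

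Igf1 measured 10.2, 9.10 and 10.4 CPM at 3 months, 9.52, 12.9 and 7.71 CPM at 12 months and 4.68, 4.11 and 7.29 CPM at 24 months. All 24-month kidneys lay below all younger ones. At 24 against 3 months the log2 fold change was -0.88 ± 0.26 (SE, adjusted p = 0.126 with edgeR and 0.0411 with DESeq2). Igf1r ran from 107 to 300 CPM over the 9 kidneys, with overlapping ages and log2 fold changes of 0.27, 0.67 and 0.40 for 12 against 3, 24 against 3 and 24 against 12 months. Igfbp5 ran from 223 to 537 CPM and Igfbp6 from 0.654 to 5.21 CPM, and neither passed at any age.

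The groups did not overlap for 4 of the 9 tested genes at 24 against 3 months, 5 at 12 against 3 months and 4 at 24 against 12 months. Over all genes these shares were 22.0%, 20.3% and 25.6%. Of the other pathway genes, Stc1 was higher at 24 than at 3 months (log2 1.95 ± 0.30, SE, adjusted p = 0.0148), at 6.86 to 15.4 CPM against 2.73 to 3.32 CPM. Leaving out 3-month replicate 1 or 3 took this call away (adjusted p = 0.0799 and 0.0571). So did the replicate block (log2 1.92, adjusted p = 0.0597), though same-numbered kidneys of these ages did not deviate together. Stc1 was also higher at 24 than at 12 months (2.07, adjusted p = 0.0196), together with Stc2 (1.11, adjusted p = 0.0196) and Igf2bp1 (1.29, adjusted p = 0.0181). With the replicate block over all 9 kidneys none of the 3 passed, with log2 fold changes of 2.02, 1.11 and 1.29 (adjusted p = 0.101, 0.124 and 0.0960). Same-numbered kidneys met the check for pairing at these 2 ages, but not with the 3-month kidneys, which this block also took in. In that edgeR fit 0 of 17067 genes passed and 1930 had an unadjusted p under 0.05. In fits that leave out 1 kidney Stc1 passed in 1 of 6, the one without 24-month replicate 3, and Stc2 and Igf2bp1 in 0 of 6, with adjusted p from 0.0176 to 0.100, 0.0599 to 0.106 and 0.0503 to 0.0956. No other gene of the 7 pathway lists passed in the kidneys. Of the fibroblast and pericyte markers 0 of 7 passed with edgeR at 24 against 3 months and 3 had an unadjusted p under 0.05, while their sum ran from 152 to 175 CPM at 3 months, 188 to 201 CPM at 12 months and 236 to 286 CPM at 24 months. The sum of 4 adipocyte markers ran from 1.11 to 143 CPM at 3 months, 2.73 to 42.6 CPM at 12 months and 0.641 to 126 CPM at 24 months. At 12 against 3 months the collecting duct marker Aqp2 (log2 -2.18 ± 0.35, SE, adjusted p = 0.0224) and the smooth muscle marker Cnn1 (-1.73, adjusted p = 0.0421) were lower. Aqp2 was at 584 ± 254, 130 ± 1.71 and 288 ± 80.4 CPM (SD, n = 3) at 3, 12 and 24 months, its lowest mean at the same age as that of Igfbp2. The sum of the 4 distal tubule and collecting duct markers ran from 1299 to 1594 CPM, 842 to 1095 CPM and 1157 to 1549 CPM at these ages, and that of the 3 smooth muscle markers from 52.4 to 64.8 CPM, 25.9 to 46.6 CPM and 46.7 to 67.9 CPM. The proximal tubule glucose transporter Slc5a2 was higher at 24 than at 3 months (1.88 ± 0.26, SE, adjusted p = 0.00997), 1 of 6 proximal tubule markers. The sum of 5 endothelial markers ran from 159 to 221 CPM at 3 months, 255 to 270 CPM at 12 months and 157 to 270 CPM at 24 months. At 12 against 3 months, where Igfbp3 was higher, 0 of these 5 passed with edgeR and 1 had an unadjusted p under 0.05, with 5 of 5 log2 fold changes above 0 and a median of 0.38. The sum of 5 macrophage and leukocyte markers ran from 98.6 to 156 CPM, 139 to 174 CPM and 147 to 187 CPM at the 3 ages. At 24 against 3 months 0 of them passed with edgeR and 2 had an unadjusted p under 0.05, with 5 of 5 log2 fold changes above 0 and a median of 0.74. The sum of the 4 hepatocyte markers Alb, Apoa1, Ttr and Fgb ran from 117 to 127 CPM at 3 months, 84.1 to 131 CPM at 12 months and 66.6 to 84.3 CPM at 24 months, the age at which Igf1 was lowest. At 24 against 3 months 0 of these 4 passed with edgeR and 3 had an unadjusted p under 0.05, Ttr (log2 -0.92) and Apoa1 (-1.10) below 0 and Fgb (1.31) above 0, and albumin, the defining marker, was at 11.5 ± 1.08 against 8.79 ± 2.27 CPM (SD, n = 3). The part of these cell types in the levels above was not tested.

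Set on one scale, the order of the 5 groups differed between genes, although Igfbp1, Igfbp3 and Igfbp4 shared one, with 12-month kidneys highest and senescent PTEC lowest. Igfbp2 was highest in senescent PTEC, at 296 ± 211 CPM (SD, n = 4), apart from the 3-month kidneys at 27.7 ± 22.5 CPM (n = 3), which overlapped non-senescent PTEC at 5.20 ± 3.13 CPM (n = 4). Next came 24-month kidneys at 2.31 ± 0.509 CPM, which overlapped non-senescent PTEC, and then, apart, 12-month kidneys at 0.415 ± 0.149 CPM. Igf2 was highest in senescent PTEC, and the other 4 groups were at or below 0.113 CPM in every library. Igfbp4 and Igfbp5 were highest in kidneys, and Igf1r overlapped between every pair of neighbours in its order. Against 3-month kidneys, non-senescent PTEC were lower in 7 of 9 genes with edgeR and higher in none, where 67.5% of 17999 tested genes passed, 35.5% lower and 32.0% higher. DESeq2, fitted without a low-count filter, also called 7 lower, against 20.3% of the 33560 genes in that fit, and none higher. By unadjusted p under 0.05, which 72.0% of all tested genes had, the same 7 were lower and none was higher. Igf2 is left out of these counts, since its 1 count over the non-senescent cultures and 5 over the 3-month kidneys are too few, and it was in the fit only through the senescent libraries. PTEC and 3-month kidneys were also counted on gene sets of their own, of 53715 and 54146 identifiers, so that this difference and the sample type cannot be told apart. The groups did not overlap for 6 of these 9, against 62.5% of all tested genes. The largest of these differences were in Igfbp5 (log2 -4.90 ± 0.57, SE, adjusted p = 9.42e-07, and -5.72 without non-senescent replicate 4) and Igfbp4 (-4.47 ± 0.46, adjusted p = 2.24e-07).

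Levels of different genes can be compared only per length, here as CPM per kilobase of exon. The 7 binding proteins summed to 427 ± 47.6 CPM per kilobase in non-senescent and 1240 ± 112 in senescent PTEC (SD, n = 4 each). The sums in kidneys were 1210 ± 69.3 at 3 months, 1494 ± 236 at 12 months and 1639 ± 27.2 at 24 months (n = 3 each). Igfbp7 was the main part of this sum in every library. It made up 94.7% ± 1.46 in non-senescent and 86.3% ± 8.21 in senescent PTEC, and 77.6% ± 4.47, 68.5% ± 1.67 and 75.0% ± 1.45 in kidneys of 3, 12 and 24 months (SD). Igfbp2 took 0.636% ± 0.316 of the sum in non-senescent PTEC and 12.6% ± 8.08 in senescent PTEC, where it ran from 6.10% to 23.8%. In kidneys the place after Igfbp7 belonged to Igfbp4, with 14.1% ± 3.16 at 3 months and 18.7% ± 1.71 at 24 months, and with 17.6% to 22.8% in the 12-month kidneys. These shares are descriptions and were not tested.

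**Figure D4:**
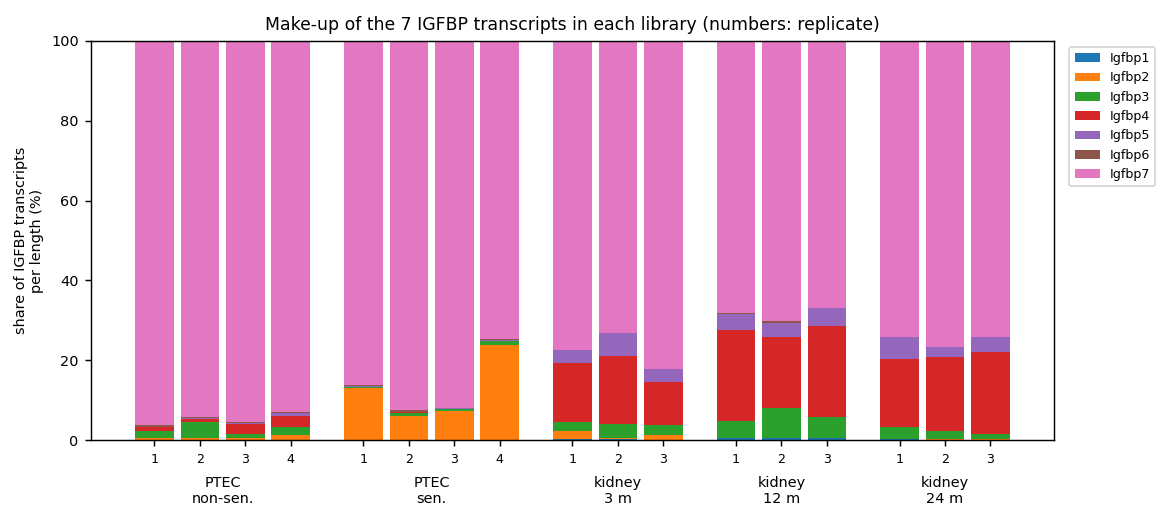
Share of each of the 7 binding proteins in their summed level per length (y axis, percent) in each of the 17 libraries (x axis, replicate number within each group). Igfbp7 is the largest part of every bar, Igfbp2 reaches 23.8% in senescent PTEC and Igfbp4 is the next largest part in kidneys.

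The genes whose pattern was most like that of Igfbp2 over the 17 libraries were found among 13938 genes by Pearson's r on log2 CPM. They were Pgm5 (r = 0.937), Dnm3 (r = 0.930), Gnb5 (r = 0.929), Scel (r = 0.924) and Cfap52 (r = 0.916). As the libraries fall into 5 groups, r follows the differences between groups, and it is given as a description. Pgm5 was at 42.9 CPM in senescent and 8.87 CPM in non-senescent PTEC, and at 8.59, 3.21 and 4.54 CPM in kidneys of 3, 12 and 24 months.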

How the data were processed

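Total RNA of 8 PTEC cultures and 9 kidneys was enriched for mRNA and sequenced by the authors, who deposited raw read counts per gene on GRCm38 without normalization. The authors made stranded libraries and ran the nf-core/rnaseq pipeline with a GENCODE annotation. The aligner and counter within it, and how counting treated strand, are not given in the sources used here. The main test was edgeR 4.0.16 in R 4.3.3 (TMM, filterByExpr, robust quasi-likelihood test, Benjamini-Hochberg over all tested genes), and DESeq2 1.42.0 was an alternative. Tables and plots were made in Python 3.11.15 with pandas 2.3.3 and matplotlib 3.10.9. Cultures and tissue had separate fits, the 3 ages shared one estimate of the spread, and PTEC were set against kidneys in one fit of all 17 libraries, whose scaling also gave the CPM printed. All adjusted p-values are from edgeR unless DESeq2 is named. Standard errors are the log2 fold change divided by the root of F. All 10 members are named, with genes of 7 pathway lists. A gene of these lists is not reported here. Members and lists were chosen with earlier results of these data known. Alternatives were other size factors, no or a stricter filter, DESeq2, other fold thresholds, the replicate block, the compared groups alone, and each library left out. The method was tested on simulated data.

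Deviations from group means correlated between same-numbered PTEC cultures with r from 0.186 to 0.614 over 4 pairs, which met the rule for pairing by number (every r over 0.1). The main fits have no block. Blocked values are printed where the call of a member, or of a pathway gene that passed, changes. Same-numbered kidneys of 12 and 24 months correlated with r from 0.172 to 0.557 over 3 pairs. For pairs with 3 months r was below 0.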

Additional observations from a re-analysis of the deposited data

Results flagged for a closer look

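Within-group gaps were examined for the 10 genes in the 2 PTEC groups of 4, 20 groups in all, of which 2 held a sample far from the others. Chance flags about 1 in 20 such groups. Igf2 in non-senescent replicate 4 was at 0.0292 CPM, a single count, where the other cultures of its group were at 0. Igfbp7 in senescent replicate 3 was at 1450 CPM, above the next culture at 1251 CPM.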

How the results depend on the processing

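Of the single-gene values of the 10 genes in senescent against non-senescent PTEC, 120 kept their direction and side of the threshold over the alternatives, 6 passed where the main value had not, and 2 changed sign. Igfbp2, Igfbp4, Igfbp6 and Igfbp7 kept an adjusted p under 0.05 in 8 of 8 fits that leave out 1 culture. So did Igf2 and Igfbp1, which passed the low-count filter only through the group where each is high. With a mean of at least 1 CPM the count called lower in PTEC was 1, since Igfbp1 was no longer tested. Leaving out 1 culture gave 4 to 6 genes higher.

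With DESeq2 the count lower at 24 against 3 months was 2, the count higher at 12 against 3 months 2 (Igfbp1 joined Igfbp3, against 1.77% of the 30029 genes in that unfiltered fit), and at 24 against 12 months 1 higher and 1 lower. At 12 against 3 months the count higher was 0 with the stricter filter and 0 with the compared groups alone, where 135 of 13322 and 38 of 16261 genes were higher, and Igfbp3 had log2 1.31 and 1.29 (adjusted p = 0.0523 and 0.0752). At 24 against 12 months the compared groups alone gave 1 higher, against 0.845% of all genes. Leaving out 1 kidney gave 0 to 1 lower at 24 against 3 months and 0 to 1 higher at 12 against 3 months, and leaving out 1 library gave 0 to 1 higher in PTEC against 3-month kidneys, the 1 being Igf1r without 3-month replicate 2. The causes were not tested.

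With the replicate block Igf1r (0.59) and Igfbp5 (0.68) passed in PTEC. At 12 against 3 months the block gave 0 genes higher, where 52 of 17067 genes were (Igfbp3 log2 1.31, adjusted p = 0.112). Same-numbered kidneys did not deviate together there, so those samples share only a number. The block changed the call of no other member.

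The log2 fold change of Igf1 at 12 against 3 months, 0.0024, turned to -0.0066 with other size factors, -0.011 with DESeq2 and -0.0012 with the compared groups alone. Leaving out 1 library gave a range through 0 for Igfbp3 in PTEC (-0.54 to 0.22), for Igfbp1 (-0.030 to 0.87), Igfbp3 (-0.20 to 0.29) and Igfbp6 (-0.51 to 0.38) at 24 against 3 months, for Igf1 at 12 against 3 months (-0.21 to 0.15), for Igfbp4 (-0.26 to 0.099) and Igfbp5 (-0.29 to 0.30) at 24 against 12 months, and for Igfbp6 in PTEC against 3-month kidneys (-0.017 to 0.57). With the longest transcript as the length, Igfbp7 made up 65.4% at 12 and 72.6% at 24 months, Igfbp4 20.8% at 24 months, and Igfbp2 0.0203% and 0.103%. Counts of 7 or fewer limit Igf2 and Igfbp1 in the PTEC group where each is low, and Igf2 in kidneys.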

Other observations

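Against 3-month kidneys, non-senescent PTEC differed in much of the surrounding pathway, and culture, isolation, cell make-up and the gene set counted on cannot be told apart there. Of 6 carrier and proteolysis genes 5 were lower, among them Igfals, the acid-labile subunit that holds IGF in the circulating complex, with a log2 fold change of -4.80 ± 0.55 (SE, edgeR adjusted p = 8.03e-07, and -5.56 without non-senescent replicate 4). Igfals had only 6 to 38 counts per non-senescent culture. Pappa2, also among the 5, had 1 count in each non-senescent culture and passed the low-count filter only through other groups, so its test adds no support. Stc2 was the 1 higher gene, with a log2 fold change of 2.21 (edgeR adjusted p = 2.92e-06). Of 5 CCN genes 4 were higher and Ccn3 was lower (log2 -2.65). Ccn5, among the higher ones, had 1 to 3 counts per 3-month kidney and passed the low-count filter only through PTEC, so its test adds no support. Ccn3 had 0 to 4 counts per non-senescent culture and passed the low-count filter only through other groups, so its test adds no support. The growth hormone receptor Ghr was at 133 ± 25.6 CPM against 1049 ± 143 CPM (log2 -2.97, adjusted p = 2.34e-10). Of all 17999 genes 67.5% passed in this comparison.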
